A study of Mus musculus with 9 samples.

Results

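A CTCF-RAD21 pair is here a pair of 1 kb genomic bins that was listed, at identical coordinates, both among the CTCF interactions and among the RAD21 interactions of untreated mouse embryonic stem cells. Of the 49630 listed CTCF interactions, 17063 had such a match, a share of 34.4% (95% Wilson interval 34.0 to 34.8%). The same 17063 pairs made up 72.2% of the 23630 listed RAD21 interactions. The remaining 32567 CTCF interactions are called CTCF-only pairs, which says only that the same bins were not listed for RAD21 at its depth. The choice rests on the contacts and q-values of both lists, so membership and everything computed from those contacts is a description.

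The interactions come from MNase HiChIP, in which crosslinked chromatin is cut by micrococcal nuclease, neighbouring ends are ligated in the nucleus, and the ligated DNA is enriched with an antibody. All 9 libraries were from E14 mouse embryonic stem cells of genotype CTCF AID, in which CTCF carries an auxin-inducible degron, grown in serum-free medium with LIF, PD0325901 and CHIR99021. CTCF (2 libraries) and RAD21 (3 libraries) were measured without IAA, and H3K27ac was measured without IAA (2 libraries) and after 12 h of IAA (2 libraries). IAA is the auxin that triggers loss of AID-tagged proteins, and the untreated cells carry the tag too. How far CTCF was lost was not analysed here. The authors deposited 1 list per group, made from all its replicates together. No spread between replicates can therefore be given, and all intervals cover counting error only. PCR copies cannot be told from separate molecules, and pairs that share an anchor are not independent.

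CTCF is a zinc finger protein that binds a directional DNA motif. Cohesin, a ring complex that includes RAD21, is thought to extrude chromatin loops until it meets bound CTCF, and loops between CTCF sites are known to form mostly where the motifs at both ends point toward each other (convergent). H3K27ac marks the nucleosomes of active promoters and enhancers, and H3K27ac interactions join a bin that holds such a peak to another bin. In embryonic stem cells the CTCF and cohesin loops are known to frame neighbourhoods of genes and enhancers.

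The matches to this motif at the anchors of 5 pairs are printed because their orientation is what the later comparison counts. Of the 8 strongest pairs 4 are shown, and the pair at Pou5f1 is added as that of a pluripotency gene. The strong pairs around Ski and at the ribosomal RNA locus could not be oriented, and those around Osm (tandem) and Fgr (convergent) are not printed. Each line gives 60 bases of GRCm38 reference sequence, 5′ to 3′ on the strand of the motif, with the 14-base match to the CTCF core in capitals. The right matches at Krt8 and Krt18, Gadd45b and Gnai2 have 0 mismatches to the core. Every other match printed has 1 mismatch. The first 3 pairs and the pair at Pou5f1 are convergent: plus strand at the left anchor and minus strand at the right. The pair around Arl4d is tandem, with plus at both anchors.
Krt8 and Krt18, left, chr15:101988261-101988320, plus: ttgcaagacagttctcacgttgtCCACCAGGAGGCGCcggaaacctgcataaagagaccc
Krt8 and Krt18, right, chr15:102065797-102065856, minus: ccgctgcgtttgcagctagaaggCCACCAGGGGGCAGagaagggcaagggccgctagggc
Gadd45b, left, chr10:80928646-80928705, plus: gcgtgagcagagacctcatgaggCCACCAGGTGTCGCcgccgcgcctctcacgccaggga
Gadd45b, right, chr10:80988255-80988314, minus: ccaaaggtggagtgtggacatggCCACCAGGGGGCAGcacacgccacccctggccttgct
Gnai2, left, chr9:107602198-107602257, plus: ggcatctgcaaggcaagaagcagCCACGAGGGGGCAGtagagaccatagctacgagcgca
Gnai2, right, chr9:107644741-107644800, minus: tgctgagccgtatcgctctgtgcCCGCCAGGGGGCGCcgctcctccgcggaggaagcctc
Arl4d, left, chr11:101658946-101659005, plus: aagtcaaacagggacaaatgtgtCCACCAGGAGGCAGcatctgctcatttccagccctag
Arl4d, right, chr11:101732809-101732868, plus: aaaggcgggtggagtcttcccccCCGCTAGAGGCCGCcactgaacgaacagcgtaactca
Pou5f1, left, chr17:35484231-35484290, plus: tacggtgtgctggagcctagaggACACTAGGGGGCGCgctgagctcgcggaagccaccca
Pou5f1, right, chr17:35509458-35509517, minus: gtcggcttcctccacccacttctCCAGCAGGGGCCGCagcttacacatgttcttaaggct
The right match at Pou5f1 lies in the gene's coding sequence. A match is a description of letters and not a measured binding site.

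The pair with the highest count in the weaker of its lists framed Krt8 and Krt18, the keratin partners of simple epithelia. It joined chr15:101988001-101989000 and chr15:102065001-102066000, 77 kb apart, both outside protein-coding genes, with 433 CTCF and 386 RAD21 contacts. The authors' model expected 11.4 and 6.70 contacts there. A pair of 154 kb around Ski, a repressor of TGF-beta signalling, followed with 402 CTCF and 348 RAD21 contacts. It ran from a Morn1 intron (chr4:155095001-155096000) to the start site of Faap20 (chr4:155249001-155250000). The 60 kb pair around the stress gene Gadd45b held 236 CTCF and 255 RAD21 contacts, with its right anchor in a Gng7 intron. The 42 kb pair around the G protein subunit gene Gnai2 held 251 and 220, with its left anchor in an exon of Sema3b.

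Cytokine genes stood at a further strong pair. Osm, encoding oncostatin M, was enclosed by a 38 kb tandem pair (chr11:4220001-4221000 to chr11:4258001-4259000) whose right anchor lay in an intron of Lif, which encodes the cytokine that keeps these cells undifferentiated in culture. It held 241 CTCF and 214 RAD21 contacts. The tandem pair around Arl4d, which encodes a small GTPase, held 396 and 205 contacts and reached the start site of the helicase gene Dhx8. Fgr, a Src family kinase gene, was enclosed by a convergent 60 kb pair with 317 and 198 contacts. Of the pairs named so far, the one at Gadd45b alone had more RAD21 than CTCF contacts.

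The exception among the strongest was chr17:39843001-39844000 to chr17:39848001-39849000, only 5 kb long, with 470 CTCF and 256 RAD21 contacts. It overlaps an annotated ribosomal RNA gene, and the model already expected 285 and 51.9 contacts there. Ribosomal RNA genes have many near-identical copies, so reads at this locus are uncertain. The summed contact ratio is given below without it too.

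Over all CTCF-RAD21 pairs the CTCF count had a median of 23, with quartiles of 15 and 35 and a range of 6 to 470. The RAD21 count had a median of 14, quartiles of 10 and 21, and a range of 6 to 386. CTCF-only pairs had a median of 12 CTCF contacts. The pairs held 52.8% of all contacts in the CTCF list and 80.5% of those in the RAD21 list. The model behind the lists held 2839756 CTCF and 1517698 RAD21 contacts, so the same pair is expected to have fewer RAD21 contacts.

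**Figure D1:**
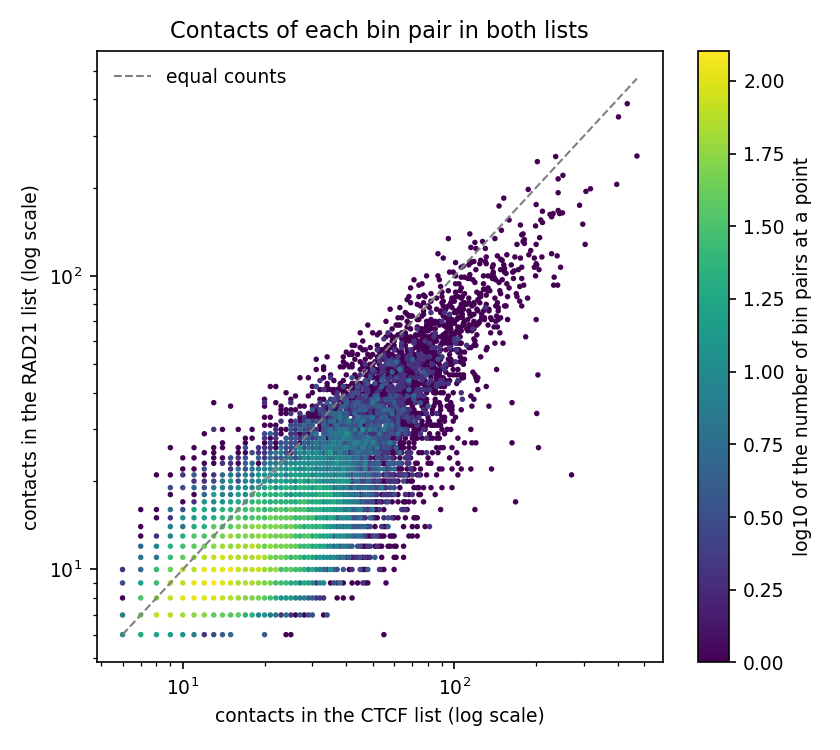
Each point is a combination of CTCF contacts (horizontal, log scale) and RAD21 contacts (vertical, log scale), coloured by how many of the 17063 pairs have it, with a dashed line at equal counts. Most pairs lie below the line, and 1589 of them (9.31%) had more RAD21 than CTCF contacts.

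RAD21 made up a median of 39.4% of a pair's contacts over both lists, with 25.8 and 53.7% at the 5th and 95th percentile. Spearman's rho between the 2 counts was 0.752 across pairs, and 0.699 for the counts divided by the model's expectation. Both are descriptions, since all pairs come from the same pooled libraries and were chosen on these counts. The strongest pairs had a match most often: 7.91% of CTCF interactions with 4 to 9 contacts were also listed for RAD21, 39.4% of those with 15 to 24 and 94.7% of those with 50 to 470.

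Among pairs with 100 or more contacts over both lists, the largest RAD21 share was at Cnnm2, a gene of magnesium transport. The 108 kb pair ran from the Cnnm2 start site to an intron of the same gene, with 45 CTCF and 64 RAD21 contacts (58.7% RAD21). Close behind were the 93 kb pair around Tmc5 with 48 and 68, and a 312 kb pair from a Kcnq1 intron around Cdkn1c with 95 and 134. Cdkn1c is an imprinted cell cycle inhibitor gene. The smallest shares belonged to short pairs. A 9 kb pair within an intron of the predicted gene Gm20388 had 270 CTCF and 21 RAD21 contacts (7.22%). A 15 kb pair around the Mediator subunit gene Med4 had 168 and 17, and an 11 kb pair at chr13:23401001-23402000 had 204 and 26.

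Pairs just inside the limit had RAD21 counts of 6 to 8. The closest in RAD21 q-value joined an Adamts14 intron at chr10:61199001-61200000 to an exon of Nodal, the TGF-beta family ligand, at chr10:61423001-61424000, with 16 CTCF and 8 RAD21 contacts and a deposited q of 0.0499856. Just outside were 6303 CTCF-only pairs (19.4% of them) with a RAD21 interaction within 1 bin at both ends but not at identical bins. Their median CTCF count was 12 and their median span 136 kb.

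The median span of the CTCF-RAD21 pairs was 138 kb (95% interval 135 to 140), with quartiles of 71 and 254 kb and a range of 5 to 1633 kb. CTCF-only pairs had a median of 157 kb, and RAD21 interactions not listed for CTCF had one of 86 kb. The share of CTCF interactions that were also in the RAD21 list was 17.2% at 5 to 20 kb, 41.5% at 50 to 100 kb and 25.6% at 400 kb and over. Counts fell with span, from medians of 34 CTCF and 17 RAD21 contacts at 5 to 20 kb to 16 and 10 at 400 kb and over. Divided by the model's expectation they rose, from 2.89 to 9.87 for CTCF and from 3.84 to 6.92 for RAD21. Pairs were called on their excess over that expectation, so this is part of how they were chosen.

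The longest pair, 1633 kb, joined introns of Lsamp and Drd3 on chromosome 16 with 7 CTCF and 8 RAD21 contacts and enclosed Gap43, Zbtb20 and Tigit. The third longest, 1592 kb and convergent, enclosed Gfra2, a receptor gene of the GDNF family, with 8 and 7 contacts. By chromosome, the matched share of CTCF interactions ran from 23.9% on X to 37.0% on chromosome 11 over 20 chromosomes. Y had 2 CTCF interactions and 0 matches.

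The pairs used 16451 distinct anchor bins. Of these, 54.3% served 1 pair, 8.63% served 5 or more, and 120 served 10 or more. The busiest anchor, chr9:110781001-110782000, lies outside protein-coding genes and took part in 19 pairs, 18 of them reaching to the left. The next, chr7:19405001-19406000 in the muscle creatine kinase gene Ckm, took part in 18, all reaching right over 24 to 467 kb. The bin at the start site of Bcl2l1, an anti-apoptotic gene, at chr2:152831001-152832000 took part in 17, all reaching left, with 1171 CTCF and 909 RAD21 contacts in sum. A bin at chr5:134907001-134908000 took part in 17, all reaching right. In the whole set, 9.39% of anchors were used as a left anchor in one pair and a right anchor in another. Of the 17063 pairs, 5743 (33.7%) lay within a longer pair, and 914 Mb (33.5% of the assembly) lay between the anchors of at least 1 pair.

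A match to the CTCF core, a 14-base consensus searched on both strands with up to 1 mismatch, lay in 55.4% of the anchors of CTCF-RAD21 pairs (54.6 to 56.1%). It lay in 28.9% (28.2 to 29.5%) of the anchors used by CTCF-only pairs alone, in 5.15% of all anchors moved by 10 kb, and in 2.75% of all 1 kb bins of the genome. The gapped short motif CCNNNAGNNGGC, which was derived from the core, gave 57.3, 42.5, 17.97 and 10.01% on both strands. Motif letters were not part of the rule of membership, but both sets had been chosen for CTCF contacts.

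Orientation could be read in 6306 pairs, those with the core on 1 strand only at each anchor. Of these, 5112 (81.1%, interval 80.1 to 82.0%) were convergent, 18.2% were tandem and 45 (0.714%) were divergent. In CTCF-only pairs the convergent share was 54.9% of 7711 (53.8 to 56.1%), with 3.83% divergent. The share was higher in the CTCF-RAD21 pairs on 20 of 20 chromosomes, at 72.9 to 86.3% against 45.3 to 66.7%. No test over pairs was made, since they share anchors.

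The difference held in every class of span. At 5 to 20 kb, 50% of oriented CTCF-RAD21 pairs were convergent against 22.3% of CTCF-only pairs, at 100 to 200 kb 81.1 against 50.3%, and at 400 kb and over 89.4 against 70.6%. By CTCF contacts the 2 sets ran apart. At 4 to 9 contacts the shares were 91.5 and 69.4%, at 15 to 24 they were 78.6 and 45.4%, and at 50 or more 86.4 and 22.6%. The last CTCF-only value rests on 7 of 31 pairs (interval 11.4 to 39.8%). At 25 to 49 contacts the CTCF-only share was 32.4% (28.6 to 36.4%), within the interval of the strongest class. In CTCF-only pairs the share thus fell from weak to strong pairs, but the last classes cannot be ranked. The strongest CTCF-RAD21 pairs (86.4%) were not below all CTCF-RAD21 pairs (81.1%). Classes of contacts were not split by span, and the part of span in these values was not tested.

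**Figure D2:**
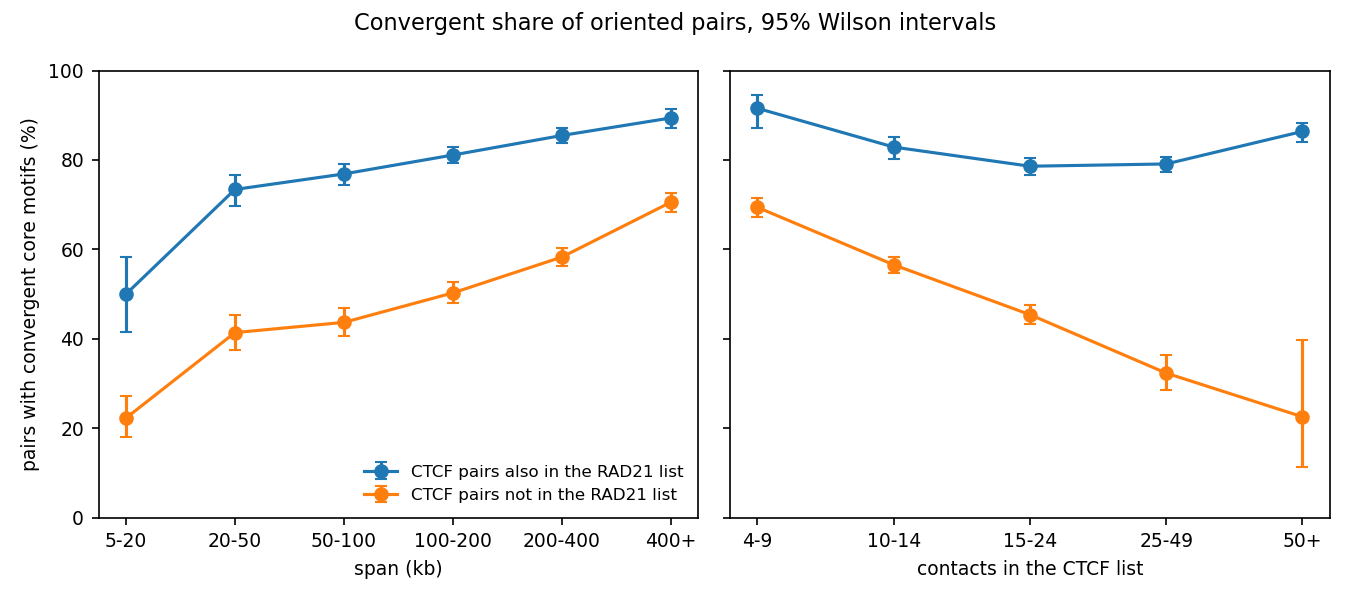
Percentage of oriented pairs whose core motifs are convergent, by span in kb (left) and by contacts in the CTCF list (right), for CTCF pairs also in the RAD21 list (blue) and not in it (orange), with 95% Wilson intervals. Blue lies above orange in every class, at 50 against 22.3% for the shortest spans and 86.4 against 22.6% for 50 or more contacts.

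A protein-coding start site lay in 11.6% of the anchors of CTCF-RAD21 pairs (11.1 to 12.1%) and in 16.98% (16.4 to 17.5%) of those of CTCF-only pairs alone. Exons without a start site held 16.1 and 16.4%, introns 26.7 and 27.3%, and 45.6 and 39.3% lay outside protein-coding genes. Counted by pair, 3118 (18.3%) had a start site at an anchor and 269 (1.58%) at both, against 23.5 and 2.83% of CTCF-only pairs. The difference was present in each class of span, from 38.1 against 43.9% at 5 to 20 kb to 9.21 against 13.9% at 400 kb and over.

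At least 1 whole protein-coding gene lay between the anchors of 68.5% of CTCF-RAD21 pairs and of 67.7% of CTCF-only pairs. Exactly 1 gene was enclosed by 26.7 and 21.4%, and 10 or more by 3.63 and 6.39%. The share with a gene rose with span, from 16.4% at 5 to 20 kb to 88.7% at 400 kb and over. The pair with most genes enclosed 88 on chromosome 7, mainly olfactory receptor genes and, among them, the beta-globin genes Hbb-bt, Hbb-bs, Hbb-bh2, Hbb-bh1 and Hbb-y, with 7 CTCF and 6 RAD21 contacts. The next 2 pairs enclosed 59 and 57 genes of the type I keratin and keratin-associated protein cluster on chromosome 11, with 14 and 7 contacts and 20 and 10.

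Of the 21728 protein-coding gene symbols on the 20 chromosomes with CTCF-RAD21 pairs, 9972 (45.9%) were enclosed by at least 1 CTCF-RAD21 pair and 1991 (9.16%) had a start site at an anchor. Pluripotency regulators were enclosed in 17 of 26 cases, genes of Nodal, Lefty and BMP signalling in 9 of 11, imprinted genes in 26 of 38, later lineage transcription factors in 23 of 35 and Hox genes in 29 of 39. Ribosomal protein genes (38 of 91), clustered protocadherin genes (24 of 56) and genes of cohesin and CTCF itself (7 of 14) lay nearer the share of all genes. These are counts without a test, and 1 long pair can enclose several neighbours of a list.

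Beside the 9.16% of all protein-coding genes with a start site at an anchor, pluripotency regulators had 4 of 26 (15.4%: Pou5f1, Nanog, Klf5 and Tbx3), ribosomal protein genes 13 of 91 (14.3%) and genes of Nodal, Lefty and BMP signalling 1 of 11 (9.09%). Later lineage factors had 2 of 35 (5.71%). Imprinted genes had 4 of 38 (10.5%: Gnas, Trappc9, H13 and Mcts2), and the H13 start site was joined to the Bcl2l1 bin named above with 206 CTCF and 135 RAD21 contacts over 162 kb. Hox genes had 4 of 39 (10.3%), with Hoxc10 in 8 pairs (the strongest 211 kb, 121 and 63 contacts) and Hoxa5 in 10. Protocadherin genes, whose variable promoters are known to be chosen through CTCF, had 8 of 56 (14.3%), the strongest at Pcdhga12 with 231 and 163 contacts over 87 kb.

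Genes of the loop machinery had start sites at anchors in 6 of 14 cases (42.9%, against 9.16% of all protein-coding genes): Smc3 and Stag1 and Stag2, which encode cohesin subunits, Wapl, which encodes the cohesin release factor, Pds5b, which encodes a cohesin regulator, and Ctcf. Pds5b stood at 4 pairs, the strongest 8 kb long with 83 CTCF and 25 RAD21 contacts. Stag1 stood at 7, with 44 and 28 contacts over 97 kb at the strongest, and Ctcf at 2, with 31 and 18 over 14 kb. The single genes given for start sites at anchors were named after their values were seen.

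H3K27ac interactions were listed in 2 kb bins, so each CTCF-RAD21 pair was carried to the 2 kb bins that hold its anchors, which gave 15574 distinct bin pairs. An H3K27ac interaction on a pair has exactly these bins, one inside has both bins between the anchors, and one across has 1 bin between the anchors and the other beyond the pair. The untreated list held 36274 H3K27ac interactions and the IAA list 28210, or 77.8% as many, although the model contacts were 12551236 and 14629323. Counts after IAA are therefore to be read against that ratio, also where it is not repeated.

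On the CTCF-RAD21 pairs themselves, listed H3K27ac interactions went from 1172 bin pairs (7.53%, 7.12 to 7.95%) in untreated cells to 334 (2.14%, 1.93 to 2.38%) after 12 h of IAA, 28.5% as many. On CTCF-only pairs they went from 1088 (3.89%) to 588 (2.10%) of 27989. Counted by CTCF-RAD21 pair rather than by bins, 1512 (8.86%) had one in untreated cells and 387 (2.27%) after IAA. Both bins were H3K27ac peaks in 75.5% of the untreated interactions on CTCF-RAD21 pairs and in 96.1% of those after IAA, against 85.2 and 87.6% of the whole lists, and the part of this in the difference was not tested. Only 43 bin pairs on the CTCF-RAD21 pairs were listed after IAA alone. They made up 12.9% of those listed after IAA, against 24.1% on CTCF-only pairs (142 of 588) and 44.9% in the whole IAA list.

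The decrease was steepest at long spans and at strong pairs. At 6 to 20 kb, 35.2% of pairs had an untreated and 22.9% an IAA interaction on them, at 50 to 100 kb 13.1 and 2.23%, and at 200 to 400 kb 2.80 and 0.219%. At 400 kb and over, 8 of 1770 had one untreated and 0 after IAA. The whole list held 82.0% as many after IAA at 6 to 20 kb, 71.3% at 50 to 100 kb and 72.4% at 100 kb and over. By contacts summed over CTCF and RAD21, the shares were 2.91 and 0.959% at 12 to 24 contacts and 27.6 and 2.85% at 100 to 819, where 339 of 1230 pairs became 35. The strongest pairs thus had H3K27ac interactions on them most often before IAA. Afterwards 50 to 99 contacts gave 3.34% (2.83 to 3.93%), and the interval at 100 to 819 (2.05 to 3.93%) contains that value.

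**Figure D3:**
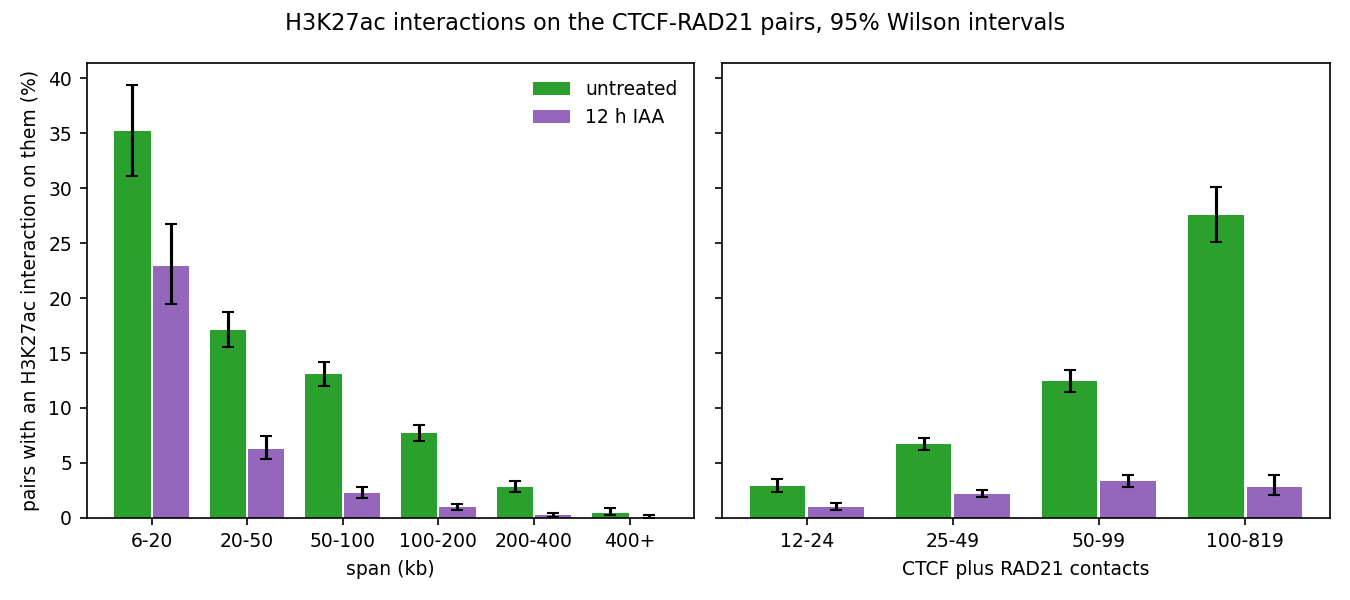
Percentage of CTCF-RAD21 pairs with a listed H3K27ac interaction on them, untreated (green) and after 12 h of IAA (purple), by span in kb (left) and by CTCF plus RAD21 contacts (right), with 95% Wilson intervals. The purple bars are lower in every class, at 27.6 and 2.85% for the pairs with 100 to 819 contacts.

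Of the 8 strongest pairs named above, all had an untreated H3K27ac interaction on them and 6 had none listed after IAA. Over all pairs 75.2% of the untreated interactions on them were not listed after IAA, and over the whole list 57.1%, so 6 of 8 is near the share of the pairs at large. At Krt8 and Krt18 the interaction had 21 untreated contacts and was not listed after IAA. The same held at Ski (23 untreated contacts), Gadd45b (23), Gnai2 (16), Osm (11) and Fgr (23). The 2 that stayed in the list were the ribosomal RNA pair, with 558 contacts untreated and 322 after IAA, and the Arl4d pair, with 36 and 10. The short pairs with the smallest RAD21 shares stayed listed: 38 and 26 contacts at Gm20388, 11 and 9 at Med4, and 68 and 78 at chr13:23401001-23402000. The 3 with the largest RAD21 shares had 18, 10 and 7 untreated contacts and were not listed after IAA. Those spanned 108, 93 and 312 kb, against 9, 15 and 11 kb for the short pairs. Of all untreated interactions on pairs, 62.1% were listed again at 6 to 20 kb. At 50 to 100 kb it was 16.01%, and at 100 kb and over 11.0%. The part of RAD21 share beside span was not tested.

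An untreated H3K27ac interaction was called again when the IAA list held the same bins. This was so for 291 of the 1172 on CTCF-RAD21 pairs (24.8%, 22.4 to 27.4%), for 41.0% of those on CTCF-only pairs and for 42.9% of all 36274. Those on CTCF-RAD21 pairs were longer and weaker than the list, with a median span of 64 against 24 kb and a median of 11 against 13 contacts. The share was therefore compared within classes of contact count. It was 1.98, 12.96, 40.7 and 80.7% at 6 to 9, 10 to 14, 15 to 24 and 25 or more contacts on CTCF-RAD21 pairs, against 14.7, 30.9, 55.3 and 82.9% for all. In the highest class the interval of 74.0 to 86.1% contains the value of the list.

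Span changed the comparison. At 6 to 20 kb, 62.1% (54.2 to 69.4%) were called again on CTCF-RAD21 pairs against 48.6% of all, so the short ones were above the list. At 20 to 50 kb the shares were 33.2 and 43.8%, at 50 to 100 kb 16.01 and 35.9%, and at 100 kb and over 11.0 and 30.8%. On CTCF-only pairs they were 55.3, 44.1, 24.7 (18.9 to 31.6%) and 21.9% (16.7 to 28.1%) in these classes, so at 50 kb and over those too were below the list. With 15 or more contacts they were 41.8 (32.2 to 52.0%) against 75.0% at 50 to 100 kb, and 40.0 (29.3 to 51.7%) against 70.4% at 100 kb and over, with 58.3% of 24 and 63.0% of 27 on CTCF-only pairs. Over all spans the share was below that of the other H3K27ac interactions on 19 of 20 chromosomes.

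Those with promoters at their bins were called again more often. With a protein-coding start site at both bins, 52.8% of 144 were called again (44.7 to 60.8%), with a start site at 1 bin 27.3% of 414, and with none 16.6% of 614. Over all untreated H3K27ac interactions the shares were 50.3, 40.9 and 42.4%. Median untreated contacts were 14.5, 12 and 11 in these classes, so contact count moved with them, and its part in the difference was not tested. After IAA, 24.9% of those on CTCF-RAD21 pairs had start sites at both bins, against 12.3% before, beside 12.7 and 12.3% in the whole lists.

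For the 291 listed in both, contacts summed to 8485 untreated and 6746 after IAA. Scaled to the sums over all 15551 H3K27ac interactions in both lists, this was a log2 ratio of -0.30 (95% Poisson interval -0.35 to -0.26). It was -0.17 with each count divided by the coverage of its anchors. Scaled by the model's totals, which shifts all log2 ratios by -0.25, it was -0.55. These ratios leave out the 881 on CTCF-RAD21 pairs (75.2%) that were not listed after IAA, against 57.1% left out over all. The median of single log2 ratios was -0.29 against 0.03 for all, and 197 (67.7%) were below 0, against 46.2% of all. On CTCF-only pairs the summed log2 ratio was -0.12, inside and not across any pair -0.03, and across 0.04. The coverage of the anchor bins themselves had a median log2 ratio of 0.14 on the CTCF-RAD21 pairs and 0.18 over all.

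An exact binomial test, two-sided and adjusted over all 15551 by Benjamini and Hochberg's method, called 3 of the 291, with 0 higher and 3 lower after IAA, where 0.135% of all were called in either direction, 0.0965% higher and 0.0386% lower. At an unadjusted p under 0.05 it was 49 of 291 (16.8%), against 4.41% of all. With the model's totals 11 were lower and 0 higher, where 0.386% of all were called. The test compares 2 pooled libraries and not the conditions. The lowest adjusted p belonged to the ribosomal RNA pair (558 and 322 contacts, log2 -0.76, adjusted p 2.2e-10 by the binomial test). Without this pair the summed log2 ratio on CTCF-RAD21 pairs was -0.27.

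Of the other called interactions, 1 had a start site at a bin. From the start site of Senp3, which encodes a SUMO protease, at chr11:69682001-69684000 to chr11:69714001-69716000, contacts were 59 untreated and 18 after IAA (log2 -1.68, adjusted p 0.00516 by the binomial test). The CTCF-RAD21 pair beneath it held 141 CTCF and 84 RAD21 contacts and enclosed Tnfsf12, a TNF family ligand gene. At chr15:77336001-77338000 to chr15:77358001-77360000, outside protein-coding genes, contacts were 82 and 34 (log2 -1.24, adjusted p 0.0147), on a pair with 250 CTCF and 164 RAD21 contacts. The coverage of the 4 bins at these loci, not scaled, had log2 ratios after IAA of -0.05, 0.15, 0.13 and 0.02, beside a median of 0.18 over all interactions in both lists. At the ribosomal RNA pair they were -0.21 and -0.23.

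**Figure D4:**
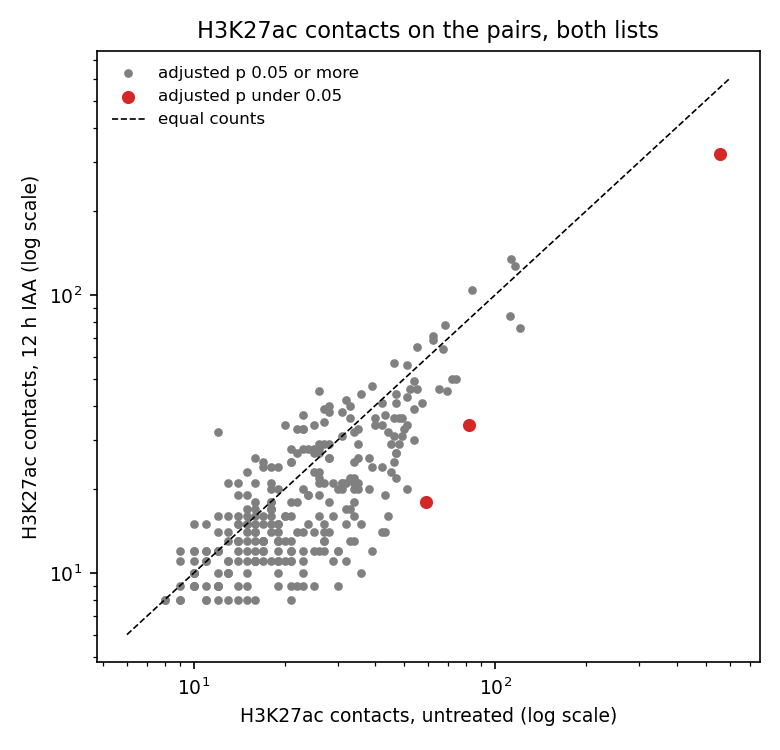
H3K27ac contacts untreated (horizontal) and after 12 h of IAA (vertical), both on log scales, for the 291 H3K27ac interactions on CTCF-RAD21 pairs and in both lists, with a dashed line at equal counts. Red points have an adjusted p under 0.05 by the binomial test: all 3 lie below the line, at 558 and 322, 59 and 18, and 82 and 34 contacts.

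Among the other large differences none passed the adjusted threshold. The interaction between Dhx8 and the left anchor beyond Arl4d had 36 and 10 contacts (log2 -1.82, adjusted p 0.0892 by the binomial test). One from the start site of Deptor, which encodes an mTOR inhibitor, over 156 kb had 30 and 9 (log2 -1.71, adjusted p 0.273). In the other direction, Zfp74 to Zfp568, both zinc finger genes, had 12 and 32 contacts (log2 1.44, adjusted p 0.406). The interaction at the start site of Nufip2 had 26 and 45 (log2 0.82, adjusted p 0.955), and one of 8 kb with a bin in Ddc had 20 and 34 (log2 0.79, adjusted p 1.0). Ywhag to Ssc4d, with start sites at both bins, had 121 and 76 (log2 -0.64, adjusted p 0.404), and a 316 kb interaction ending in Sp110 had 116 and 127 (log2 0.16).

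By a rule added after seeing the values, the interactions on CTCF-RAD21 pairs with most untreated contacts and no IAA row were also listed. At chr15:77342001-77344000 to chr15:77358001-77360000, which shares its right bin with a called interaction above, there were 52 untreated contacts. From the Slc35b1 start site around Spop and Nxph3, over 136 kb, there were 43, on a pair with 146 CTCF and 95 RAD21 contacts. Slc2a3, which encodes a glucose transporter, and Eef1a1, which encodes a translation elongation factor, each had one with 41. Fignl1 to the imprinted gene Grb10, around Ddc, had 40.

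Inside the CTCF-RAD21 pairs lay 24832 untreated H3K27ac interactions (68.5%, 68.0 to 68.9%) and 17828 after IAA (63.2%, 62.6 to 63.8%), 71.8% as many against 77.8% for the list. Across at least 1 pair lay 11230 (31.0%, 30.5 to 31.4%) and 9167 (32.5%, 32.0 to 33.0%), 81.6% as many. Since pairs overlap, 7817 untreated interactions were inside one and across another. Those inside and across none went from 17015 to 12256 (72.0%), and those across and inside none from 3413 to 3595 (105.3%), a set that grew while the list shrank. Those on, inside and across none went from 7680 to 6665 (86.8%).

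The gap between inside and across was present in each class of H3K27ac span. Inside, the number after IAA was 78.1, 71.4, 62.5 and 55.9% of untreated at 6 to 20, 20 to 50, 50 to 100 and 100 kb or more. The list gave 82.0, 77.4, 71.3 and 72.4%, and across gave 95.8, 85.3, 76.6 and 75.4%. On the pairs it was 72.5, 38.3, 18.3 and 12.1%. Among untreated interactions not on a pair, those inside and across none were called again in 44.8% of cases and those across in 38.04%, with median spans of 14 and 58 kb. Within the classes of span the shares were 47.5 and 47.5%, 41.8 and 42.4%, 39.1 and 34.8%, and 32.8 and 31.8%. The interactions listed after IAA alone made up 38.5% of the IAA interactions inside and across none and 54.9% of those across. Within the classes of span these were 38.03 and 50.6%, 39.3 and 51.3%, 37.2 and 56.7%, and 44.95 and 59.97%. Inside and across were thus closer in what was called again than in what was listed after IAA alone.

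**Figure D5:**
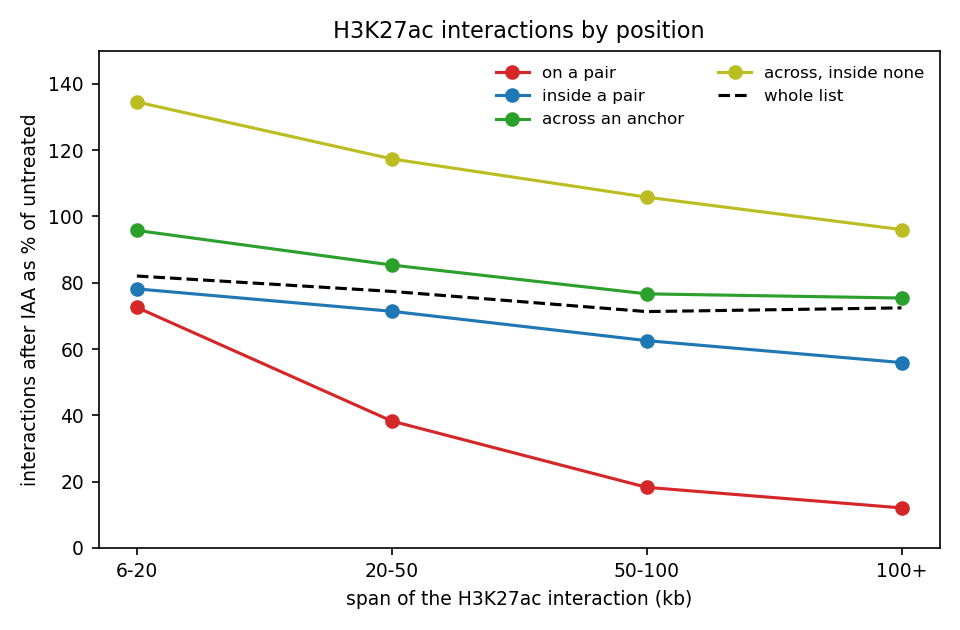
Number of H3K27ac interactions after 12 h of IAA as a percentage of the untreated number, by span of the H3K27ac interaction in kb, for those on a CTCF-RAD21 pair, inside one, across an anchor, and across without being inside another, with the whole list dashed. At 100 kb or more the values are 12.1% on, 55.9% inside, 75.4% across, 96.0% across and inside none, and 72.4% for the list.

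Counted per pair, the inside share of H3K27ac interactions (inside against inside plus across) fell in every class of pair strength. It went from 84.4 to 79.7% for pairs with 12 to 24 CTCF plus RAD21 contacts and from 73.6 to 66.5% for those with 100 or more. The number inside after IAA was 72.5, 67.6, 65.8 and 64.2% of untreated from the weakest to the strongest class, and the number across 100.3, 92.9, 88.8 and 90.1%. Nested pairs count an interaction more than once here.

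The anchors showed a direction as well. Of the H3K27ac interactions with a bin at an anchor used on 1 side only, other than those on a pair, 5372 pointed into the pairs and 2305 away from them in untreated cells (70.0% into, 68.9 to 71.0%). After IAA, 3448 pointed into and 1880 away (64.7%, 63.4 to 66.0%). These are 64.2 and 81.6% of the untreated numbers, against 77.8% for the list. Their contacts pointed into the pairs in 69.6% of cases untreated and 65.6% after IAA.

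Promoters were read in the same way against the smallest pair around them. For the 10442 protein-coding promoter bins with a CTCF-RAD21 pair around them, partners within the pair went from 7311 to 5338 (73.0%) and partners beyond it from 3663 to 3173 (86.6%). The share within was 66.6% (65.7 to 67.5%) untreated and 62.7% (61.7 to 63.7%) after IAA. By contacts of the pair the numbers within were 79.9, 72.3, 65.7 and 73.9% of untreated at 12 to 24, 25 to 49, 50 to 99 and 100 or more, and beyond 94.3, 84.9, 87.0 and 82.3%.

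Of the 26 pluripotency regulators, 18 had a CTCF-RAD21 pair around their start site. Summed over these genes, H3K27ac partners of the promoter went from 80 to 50 within the smallest pair and from 50 to 51 beyond it. Sox2, which encodes a core pluripotency factor, lay in a 112 kb pair (chr3:34648001-34649000 to chr3:34760001-34761000, 18 CTCF and 17 RAD21 contacts) whose interactions inside went from 56 to 46. Its promoter had 12 partners within and 3 beyond untreated, and 9 and 0 after IAA. Nanog, in a 50 kb pair with 32 and 16 contacts, had 7 partners within and 13 beyond, and 3 and 14 after IAA. Pou5f1, which encodes OCT4, had its start site in a 25 kb convergent pair that ends within the gene, with 73 and 67 contacts. It had 6 partners within and 5 beyond, and 4 and 3 after IAA.

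Tbx3, a T-box factor gene, had the largest single decrease within, from 19 to 11, in a 326 kb pair with 82 interactions inside untreated and 48 after IAA. Interactions inside the pair went from 69 to 45 around Klf2, from 26 to 10 around Fgf4, from 22 to 9 around Prdm14 and from 38 to 35 around Tfcp2l1. Around the naive-state gene Dppa5a, in a convergent 28 kb pair with 75 and 37 contacts, they went from 20 to 14, while its promoter had 4 partners within in both lists. The numbers after IAA were 38.5% of untreated around Fgf4, 40.9% around Prdm14 and 58.5 to 92.1% around the other genes with 20 or more untreated interactions inside. Over all 1922 pairs with as many, which were likewise picked by their untreated count, the 5th and 95th percentile were 39.1 and 98.5%, so these genes lay within or next to the common spread. Klf4 lay only in long pairs, the smallest of 979 kb with 14 and 8 contacts, and its 6 partners beyond were 6 after IAA as well. Genes with no pair around their start site included Zfp42, Dppa3, Utf1, Nr0b1, Tet1, Nr5a2 and Otx2. The numbers at single genes are small and come from 1 pooled list per condition.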

How the data were processed

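The authors deposited 1 list of called interactions per group, pooled over replicates. Per the file headers each row holds 2 bins, a contact count that is not normalised, bin coverage, an expected count, a p-value and a q-value, and every deposited q-value was under 0.05. Trim Galore, BWA, MACS2, deepTools and mm10 are named in the submitters' processing notes, with no version or role; the interaction caller's settings are not given in the sources used here. Coordinates are GRCm38, counted from 1, with GENCODE M21 genes.

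CTCF rows were matched to RAD21 rows on chromosome and both starts. Shares have 95% Wilson intervals. H3K27ac interactions in both lists were compared by an exact two-sided binomial test over all of them, scaled to their totals and adjusted by the Benjamini-Hochberg method. It was run on simulated counts with known changes and Poisson error alone, which cannot show how it behaves with spread between libraries. Python 3.11.15, numpy 2.4.6, pandas 2.3.3 and scipy 1.17.1 were used.

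The members, gene lists and CTCF core were chosen with earlier results of these data known, and the short motif derives from that core. Named pairs were those with the largest smaller count, the extreme RAD21 shares, the longest, those with most genes, the busiest anchors and those nearest the q limit. Named H3K27ac interactions were those with most contacts and the largest changes. Within each ranking, pairs or interactions that lay a few bins from one already named at both ends were left out. Alternatives varied bin tolerance, q limit, minimum count, motif, annotation, list length and scaling, and 3 were added after seeing the data. The 2 alternatives that need values per replicate were not run. Some single genes of the lists are not reported here.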

Additional observations from a re-analysis of the deposited data

How the results depend on the processing

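Over 13 results and 38 alternatives, 10 alternatives stayed within the counting error or within 1.5 times a count, 28 moved the value further and 0 reversed a direction. The cause was not tested. No paired analysis was possible because each list is pooled over its replicates; for the same reason no replicate could be left out. A q limit of 0.01 in both lists gave a start site at an anchor in 17.4% of pairs, 83.5% convergent, an untreated H3K27ac interaction on 9.65%, 22.1% called again, a log2 ratio of -0.35, and H3K27ac shares inside of 63.1% untreated and 57.6% after IAA and across of 27.2 and 29.1%. A minimum of 10 contacts gave a median span of 118 kb, 34.7% called again (48.7% of all), 70.9 and 65.9% inside and 26.4 and 28.4% across. A tolerance of 1 bin in the match of CTCF to RAD21 rows gave 23366 pairs. For the reported pairs, a tolerance of 1 bin at the 2 kb bins gave an untreated H3K27ac interaction on 13.2%. The same tolerance in the IAA list gave 34.2% called again (65.7% of all). A start site within 1 bin of an anchor was found in 28.4% of pairs, and one of any annotated gene in 22.5%. Counting enclosed start sites gave 84.3%, and all annotated genes 88.2%. The core without mismatch gave 79.3% convergent and the short motif 72.5%. H3K27ac lists of the same length gave 28.9% called again (49.8% of all) and 29.95% across untreated. Division by anchor coverage gave a log2 ratio of -0.17. Scaling by the model's totals gave -0.55 and called 11 lower and 0 higher on the pairs, where 0.386% of all were called. Small counts limit single bin pairs, and an interaction not listed is one not called at this depth.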
